A study of Mus musculus with 2 samples.

Results

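The enzymes that write and erase DNA methylation were examined at the chromatin level in the left cerebral cortex of newborn mice. The 8 genes, taken by name from 21938 protein-coding genes, were Dnmt1, Uhrf1, Dnmt3a, Dnmt3b, Dnmt3l, Tet1, Tet2 and Tet3, each with its gene body and 50 kb on either side. DNase-seq maps the places where the enzyme DNase I cuts chromatin, and regions cut above the local level are called DNase I hypersensitive sites (DHSs), the usual mark of open promoters and enhancers. There was 1 group of 2 libraries, replicate 1 and replicate 2, each from a female B6CASTF1/J mouse at 4 days of age. This is an F1 hybrid strain, and the deposited files do not separate the parental alleles. The labels give the animals separate numbers and 1 shared donor entry. The design has no contrast between conditions, so every value describes these libraries, and the members are set beside all protein-coding genes without a test.

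The stricter of the deposited lists held 59355 calls in replicate 1 and 46566 calls in replicate 2, and 26012 DHSs were shared, meaning that overlapping calls came from both libraries. A promoter DHS lay within 1 kb of a transcription start of a protein-coding gene, and any other DHS is called distal. The authors' signal value of each call has no stated scale, and at shared DHSs it was a median 2.13 times higher in replicate 2 than in replicate 1, so levels are read within a library. Of marker genes, a shared promoter DHS was found at 5 of 5 pan-neuronal genes, 5 of 10 cortical excitatory neuron genes, 6 of 6 cell-cycle genes and 1 of 8 genes of other tissues. The excitatory neuron count was 5 in replicate 1 alone, 9 in replicate 2 alone and 7 shared in the lenient list. In whole tissue, a weak DHS in many cells and a strong one in few cells cannot be told apart.

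DNA methylation is laid down de novo by Dnmt3a and Dnmt3b, which the catalytically inactive Dnmt3l assists in germ cells. It is copied after replication by Dnmt1, which Uhrf1 brings to hemimethylated DNA. Tet1, Tet2 and Tet3 oxidise 5-methylcytosine to 5-hydroxymethylcytosine, a base that is abundant in neurons, and in the postnatal brain Dnmt3a adds methyl groups outside CpG sites. Several of these genes start from more than 1 promoter, and the choice of start changes the protein.

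A shared promoter DHS was found at 6 of the 8 genes, against 55.7% of all protein-coding genes. Dnmt1, Uhrf1, Dnmt3a, Dnmt3b, Tet2 and Tet3 had one, and Dnmt3l and Tet1 had none. The same 6 genes were called in the lenient list, where the share of all genes was 61.5%, and in replicate 1 and replicate 2 alone, where it was 57% and 60.2%. When start sites within 500 bp of each other were joined, the members had 15 separate starts, of which 8 had a shared promoter DHS, against 47.1% of all starts. At the other 7 starts neither library had a call in the stricter or the lenient list, and no base within 1 kb had a false discovery rate (q) under 0.05 in either library. Among all starts without a stricter call, 14.4% in replicate 1 and 11.8% in replicate 2 did list such a base.

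Both maintenance genes had the highest signal values. Within each library the order began with Dnmt1 and then Uhrf1, and ended with Dnmt3b. Tet2 changed its place, lying below Dnmt3a and both Tet3 starts in replicate 1 and above them in replicate 2. With 2 libraries on unlike scales, neighbours in this order cannot be separated from library error.

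**Figure D1:**
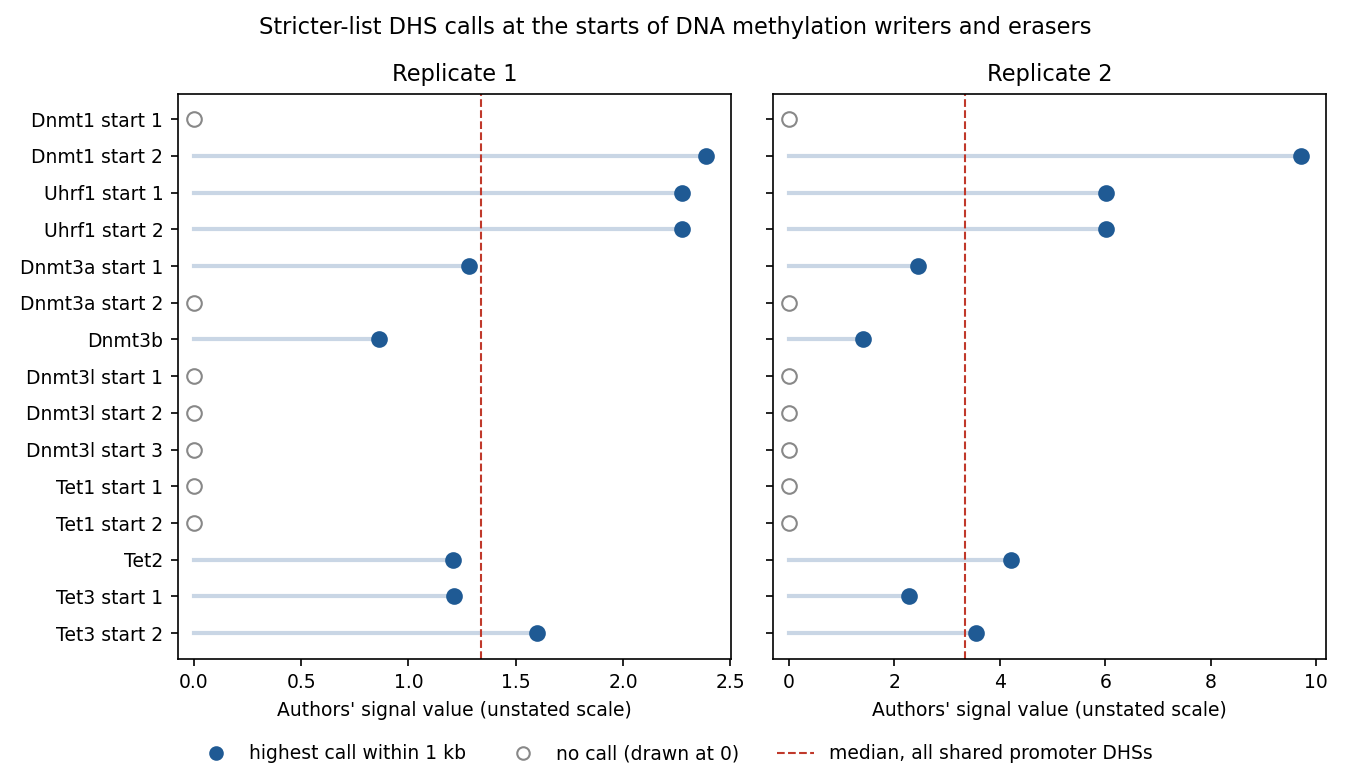
The authors' signal value (horizontal axis, unstated scale) of the highest stricter-list call within 1 kb of each of the 15 starts, in replicate 1 (left) and replicate 2 (right). Filled circles are calls, open circles mark starts without a call, and the dashed line is the median of all shared promoter DHSs, 1.34 in replicate 1 and 3.34 in replicate 2; Dnmt1 start 2 and Uhrf1 lie furthest to the right in both.

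Dnmt1, the maintenance methyltransferase, lies on the minus strand of chromosome 9 and has separate starts. The upstream one, at position 20959888 (mm10), belongs to a transcript with 1501 codons, the shorter form known from oocytes. The downstream one, at 20952605 to 20952979, belongs to the somatic form with 1620 codons. The downstream start carried a shared DHS at chr9:20952721-20953060 with signals of 2.39 in replicate 1 and 9.70 in replicate 2. These values were higher than those of 88.8% and 93.3% of all shared promoter DHSs in the same libraries. The upstream start had no call in either list of either library, and the nearest stricter call lay 6828 bp away in replicate 1 and 6848 bp away in replicate 2. Replicate 2 had a further call just inside the gene, at chr9:20952481-20952720, with a signal value of 4.69 and no counterpart in either list of replicate 1. This call adjoined the shared DHS without a gap, and touching calls were kept apart.

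The 250 bases in front of each Dnmt1 start, with CpG in capitals, show how unlike they are in composition. The upstream start, without a call, held 2 CpGs (chr9:20959889-20960138, minus strand) and the downstream start, with a shared DHS, held 7 (chr9:20952980-20953229, minus strand).
Dnmt1 start 1, no call: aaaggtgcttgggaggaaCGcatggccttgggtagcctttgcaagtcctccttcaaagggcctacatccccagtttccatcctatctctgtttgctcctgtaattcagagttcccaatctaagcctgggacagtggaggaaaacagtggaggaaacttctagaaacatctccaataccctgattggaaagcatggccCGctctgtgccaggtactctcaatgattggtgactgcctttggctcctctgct
Dnmt1 start 2, shared DHS: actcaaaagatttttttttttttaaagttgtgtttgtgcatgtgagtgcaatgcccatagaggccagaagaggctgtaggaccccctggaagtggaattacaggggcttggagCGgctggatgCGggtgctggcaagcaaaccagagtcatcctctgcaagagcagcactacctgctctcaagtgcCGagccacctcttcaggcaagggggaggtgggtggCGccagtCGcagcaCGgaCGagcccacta
Within 500 bp of the start, the observed to expected CpG ratio was 0.0588 at the upstream start and 0.585 at the downstream start. Of all starts with a ratio under 0.1, 0.454% had a shared promoter DHS, and of those between 0.5 and 0.6, 68.6% did.

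Inside the Dnmt1 promoter DHS, footprints were called in both libraries. Footprints are short stretches protected from cutting inside an open region, as a bound protein leaves them. A run of 15 bases, 25 to 39 bases downstream of the first start position, lay in footprints of both, and it contained a full match to the consensus of NRF1, a factor that binds unmethylated CpG-rich promoters. The site is printed on the gene's strand, with the bases inside footprints of both libraries in capitals (chr9:20952933-20952961, minus strand).
Dnmt1 footprint with NRF1 consensus: gcctccgTTGCGCGCATGCGCActccctt
The NRF1 consensus was present in the central 300 bp of 1 of the 10 shared promoter DHSs of the members, against 1.88% of all shared promoter DHSs. A match to an E2F consensus at chr9:20952835-20952842 lay in a footprint of replicate 2 and in none of replicate 1.

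Uhrf1, which recognises hemimethylated CpGs and recruits Dnmt1, is on the plus strand of chromosome 17 with starts at 56303321 to 56303400 and at 56304313 to 56304348. One shared DHS at chr17:56304081-56304320 lay within 1 kb of both, 681 bp from the upstream start. The call of replicate 1 overlapped the downstream start and that of replicate 2 lay 33 bp from it. Its signal values were 2.27 in replicate 1 and 6.01 in replicate 2, higher than 86.4% and 75.8% of shared promoter DHSs. The promoter window therefore counts both starts, and with a window of 0.5 kb only the downstream one had a shared DHS. On the upstream start itself, replicate 1 had a call in the lenient list alone, chr17:56303249-56303346, with a signal value of 0.546. The stretch called in both libraries is printed because it holds several consensus matches within 200 bases (chr17:56304081-56304280, plus strand, capitals in footprints of both libraries).
Uhrf1 promoter DHS: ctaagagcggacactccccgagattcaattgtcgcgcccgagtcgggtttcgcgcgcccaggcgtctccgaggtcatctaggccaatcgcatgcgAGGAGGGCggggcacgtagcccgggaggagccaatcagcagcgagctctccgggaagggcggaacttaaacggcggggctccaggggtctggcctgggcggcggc
It contained matches to SP/KLF (GGGCGG), NFY (CCAAT) and E2F (TTTCGCGC). The run of 8 bases in footprints of both libraries overlapped an SP/KLF match by 4 bases, and the E2F match lay in a footprint of neither.

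Dnmt3a, the de novo methyltransferase of postmitotic neurons, is on the plus strand of chromosome 12. Its long form of 908 codons starts at 3807030 to 3807160 and its short form of 689 codons, known from embryonic stem cells and germ cells, starts inside the gene at 3891728 to 3891744. The long-form start lay among 3 shared DHSs, and the short-form start had no call in either list of either library. At chr12:3806321-3806740 the signal values were 1.09 in replicate 1 and 2.43 in replicate 2. At chr12:3806852-3807070 they were 0.934 and 2.17. At chr12:3807741-3808465, downstream of the start, they were 1.28 and 2.45. The highest of these exceeded 47.0% of shared promoter DHSs in replicate 1 and 37.3% in replicate 2, so Dnmt3a stood near or below the middle of all shared promoter DHSs. A further call between them, chr12:3807228-3807393, appeared in both libraries in the lenient list alone.

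Replicate 2 had an intronic call upstream of the short-form start, at chr12:3887441-3887964, with a signal value of 2.03. It lay 3764 bp from the start. Replicate 1 listed it in the lenient list alone, with a signal value of 0.757, and its nearest stricter call was 57586 bp from the start. The 250 bases in front of each start are shown with CpG in capitals, 37 CpGs at the long-form start (chr12:3806780-3807029, plus strand) and 16 at the short-form start (chr12:3891478-3891727, plus strand).
Dnmt3a start 1, shared DHSs: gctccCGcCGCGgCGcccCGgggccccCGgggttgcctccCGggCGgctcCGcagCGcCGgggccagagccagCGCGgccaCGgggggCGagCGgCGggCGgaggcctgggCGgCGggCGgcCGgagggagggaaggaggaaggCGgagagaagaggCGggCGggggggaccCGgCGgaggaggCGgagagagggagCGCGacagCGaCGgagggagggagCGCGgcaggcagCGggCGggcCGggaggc
Dnmt3a start 2, no call: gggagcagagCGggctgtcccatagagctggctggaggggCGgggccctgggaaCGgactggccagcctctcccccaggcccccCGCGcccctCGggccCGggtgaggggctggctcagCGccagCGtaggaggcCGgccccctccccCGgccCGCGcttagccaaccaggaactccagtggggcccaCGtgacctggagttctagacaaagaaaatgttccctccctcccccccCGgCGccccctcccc
The CpG ratio was 0.993 at the long-form start and 0.508 at the short-form start. The short-form start was thus without a call in a class of starts, ratio 0.5 to 0.6, in which 68.6% of all starts had a shared promoter DHS.

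Dnmt3b, the other de novo methyltransferase, is most active in early embryos. Its 10 basic transcripts share 1 start region on chromosome 2, at 153649450 to 153649617 on the plus strand, with a CpG ratio of 0.840. The shared DHS at chr2:153649241-153649947 had signals of 0.864 in replicate 1 and 1.39 in replicate 2, the lowest of the members that were called. Among all shared promoter DHSs, 21.2% had a lower value in replicate 1 and 16.5% in replicate 2. It was the member DHS that dropped out when the lists were cut to the stronger calls. Upstream of the start, a run of 8 bases lay in footprints of both libraries and held an SP/KLF match, which overlapped a match to EGR (GCGGGGGCG) that begins inside the run (chr2:153649380-153649403, plus strand, capitals in footprints of both).
Dnmt3b footprint with SP/KLF consensus: gcgcccccCGGGCGGGggcggggc
An antisense gene, Dnmt3bos, starts 669 bp from the Dnmt3b start on the other strand. DNase-seq carries no strand, so the DHS cannot be assigned to either gene.

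Dnmt3l, the germ-line cofactor, has 3 starts on the plus strand of chromosome 10, at 78042287, at 78049842 to 78049959 and at 78055335. None had a call in either list of either library. Their CpG ratios were 0.195, 0.30 and 0.175. The nearest shared DHS, chr10:78043441-78043668, lay inside the Dnmt3l gene at the promoter of Aire, an autoimmune regulator transcribed in the opposite direction from a start 1323 bp from the first Dnmt3l start. Its signal values were 0.715 in replicate 1 and 1.35 in replicate 2, higher than 11.5% and 15.4% of shared promoter DHSs. It lay 1215 bp and 1154 bp from the first Dnmt3l start, and so a promoter window of 2.5 kb would count it for Dnmt3l too.

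Tet1, a dioxygenase highly expressed in embryonic stem cells, lies on the minus strand of chromosome 10. The basic annotation gives starts at 62899118, for a protein of 2039 codons, and at 62880014, for 2007 codons. Neither start had a call in either list of either library. The nearest stricter calls lay 21343 bp and 20863 bp from the first start, and 14334 bp and 13334 bp from the second, in replicate 1 and replicate 2. The CpG ratios were 0.270 and 0.631. The second start had a GC content of 45.4% within 500 bp. The 250 bases in front of it held 2 CpGs and overlapped an untranslated region of a basic transcript. Of all starts with a ratio between 0.6 and 0.7, 81.9% had a shared promoter DHS, a share taken over starts of any GC content. At a further annotated start, 62887324 to 62887512, where RefSeq places the gene's promoter, the CpG ratio was 0.609. The sole call there was one of replicate 2 in the lenient list, with a signal value of 0.677.

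Inside the Tet1 gene a shared DHS was nevertheless present, at chr10:62865221-62865700, with signals of 1.23 in replicate 1 and 2.97 in replicate 2. These were higher than 69.6% and 79.1% of all shared distal DHSs. It is intronic in the basic annotation and covers the start, at 62865304, of Tet1-202, a processed transcript outside the basic set. With all annotated transcripts counted, Tet1 therefore had a shared promoter DHS. The count of members was then 7 of 8, against 57.1% of all protein-coding genes, and 11 of 43 member starts had one. The 300 bases around its shared footprints are printed on the gene's strand, with the 3 runs inside footprints of both libraries, of 7, 9 and 11 bases, in capitals (chr10:62865314-62865613, minus strand).
Tet1 internal DHS: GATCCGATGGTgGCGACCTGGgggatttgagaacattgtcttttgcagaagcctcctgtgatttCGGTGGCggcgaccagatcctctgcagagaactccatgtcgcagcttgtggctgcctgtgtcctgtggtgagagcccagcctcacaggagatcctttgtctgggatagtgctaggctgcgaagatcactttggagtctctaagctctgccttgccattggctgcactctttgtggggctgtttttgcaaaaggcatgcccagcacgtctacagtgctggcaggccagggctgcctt
None of the runs held a full match to a searched consensus.

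Tet2 differs from the other Tet genes in lacking a DNA-binding CXXC domain of its own. It has 1 start on chromosome 3, at 133544368 to 133544390 on the minus strand, with a CpG ratio of 0.930. The shared DHS at chr3:133544021-133544520 had signals of 1.17 in replicate 1 and 4.21 in replicate 2, higher than 40.7% and 59.98% of shared promoter DHSs. Replicate 1 had a further call upstream, chr3:133544581-133545180, with a value of 1.21, where replicate 2 had no call in either list but did have 7 footprints beside the 8 of replicate 1. An antisense gene, Gm42567, starts 707 bp away.

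Tet3 was the one member with more than 1 start that had a shared DHS of its own at each of them. This held at the 1 bp overlap used here, and with 50% reciprocal overlap a shared DHS remained at 1 of the 2 Tet3 starts. The start at 83456392 on the minus strand of chromosome 6 gives a protein of 1803 codons with a CXXC domain, and the start at 83441675 gives a shorter protein of 1668 codons, the form known from neurons. Both had shared promoter DHSs. The long-form start had signals of 1.21 in replicate 1 and 2.28 in replicate 2 at chr6:83456621-83457180. This DHS lay 229 bp or more upstream of the start, and 120 of its 560 bp were called in both libraries. At the short-form start, values of 1.60 and 3.55 were found at chr6:83441341-83441980, with a further DHS of 1.18 and 3.26 downstream at chr6:83440881-83441140. The short-form start had the higher value in both libraries. An RNA gene, B230319C09Rik, starts 80 bp away on the other strand, so the short-form DHS cannot be assigned to Tet3 alone. The CpG ratio was 0.820 at the long-form start and 0.537 at the short-form start. The stretch in front of the short-form start is printed with the bases in footprints of both libraries in capitals (chr6:83441676-83441880, minus strand).
Tet3 short-form promoter: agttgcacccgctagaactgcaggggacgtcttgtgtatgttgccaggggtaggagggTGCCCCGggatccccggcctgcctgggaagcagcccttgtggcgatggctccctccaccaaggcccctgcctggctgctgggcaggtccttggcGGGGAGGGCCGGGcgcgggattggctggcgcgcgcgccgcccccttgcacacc
In the DHS upstream of the long-form start, 8 runs of bases lay in footprints of both libraries, the most of any member promoter DHS. Some of these were of 1 to 6 bases, and runs of 7 bases or more were more numerous in the Dnmt3a DHS at chr12:3807741-3808465. The longest Tet3 run, of 14 bases, lay outside the stretch called in both libraries, chr6:83456701-83456820. It held overlapping SP/KLF matches on the other strand (chr6:83456828-83456857, minus strand).
Tet3 long-form footprint: gtccgcgcCCCGCCCCGCCCCTcctcgaca

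Seen over all 15 starts, the calls followed CpG content as they did in the genome. Of member starts with a CpG ratio of 0.6 or more, 5 of 6 had a shared promoter DHS, against 89.6% of all such starts. Of member starts under 0.6, 3 of 9 had one, against 18% of all such starts. These 3 were Dnmt1 start 2, Uhrf1 start 1 and Tet3 start 2, each with a ratio over 0.5. Uhrf1 start 1 was counted through the DHS 681 bp away, near start 2. Tet1 start 2, without a call at 0.631, was the one of these 15 starts out of the order of CpG ratio. Its ratio came with a GC content of 45.4%, and with 2 CpGs in the 250 bases in front of it. The further annotated Tet1 start at 62887324 to 62887512, which is not among the 15, also had no stricter call, at a ratio of 0.609. Dnmt3a start 2, without a call at 0.508, lay just under the lowest ratio of a called start, 0.537. Of the 6 members with more than 1 start, 2 had a DHS within 1 kb of every start, Tet3 and, through 1 DHS, Uhrf1. A further 2 had one at some starts (Dnmt1 and Dnmt3a) and 2 at none (Dnmt3l and Tet1). Among the 5366 genes with more than 1 start, the shares were 15.5%, 37.3% and 47.2%.

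**Figure D2:**
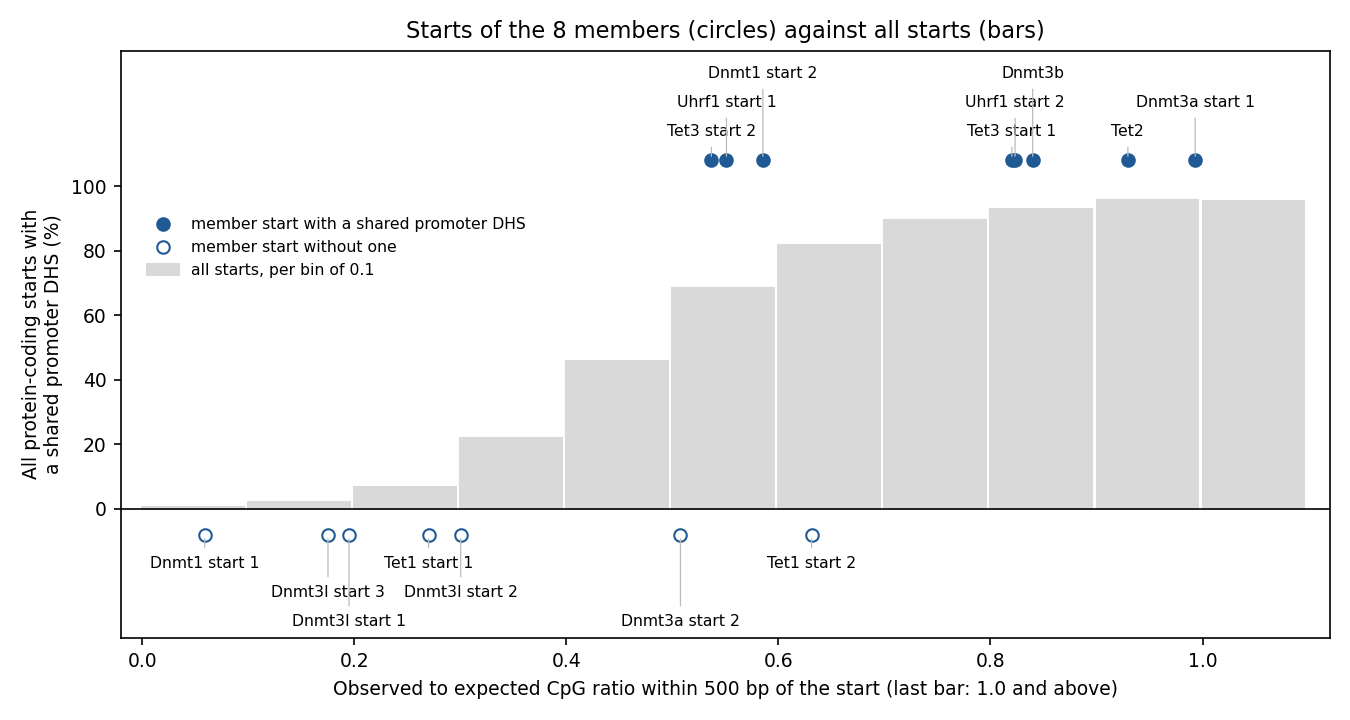
The observed to expected CpG ratio within 500 bp of a start (horizontal axis) for the member starts with a shared promoter DHS (filled circles, above the bars) and without one (open circles, below), and the percent of all protein-coding starts with a shared promoter DHS in each bin of 0.1 (bars, vertical axis). The bars climb from 0.454% under a ratio of 0.1 to 95.6% between 0.9 and 1; Tet1 start 2 and Dnmt3a start 2 are open circles under tall bars.

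Away from promoters, the 8 windows held 11 shared distal DHSs, 3 in exons and 5 in introns of the basic annotation and 3 between genes. At least 1 was present in 7 of 8 windows, against 54.3% of all protein-coding genes with the same flanks, and the median was 1 for the members and 1 for all genes. Per 100 kb of window the median was 0.773 for the members and 0.526 for all genes. Of the 8 members, 2 had one inside the gene body, Dnmt3a and Tet1, against 15.7% of all genes. Dnmt3a had 4 in its window of 208 kb, more than 93.5% of genes, and by number per 100 kb it exceeded 87.2% of genes. Tet2 had 0 in 181 kb. The windows also held 19 shared DHSs at promoters of neighbouring genes and 10 at the members' own promoters.

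**Figure D3:**
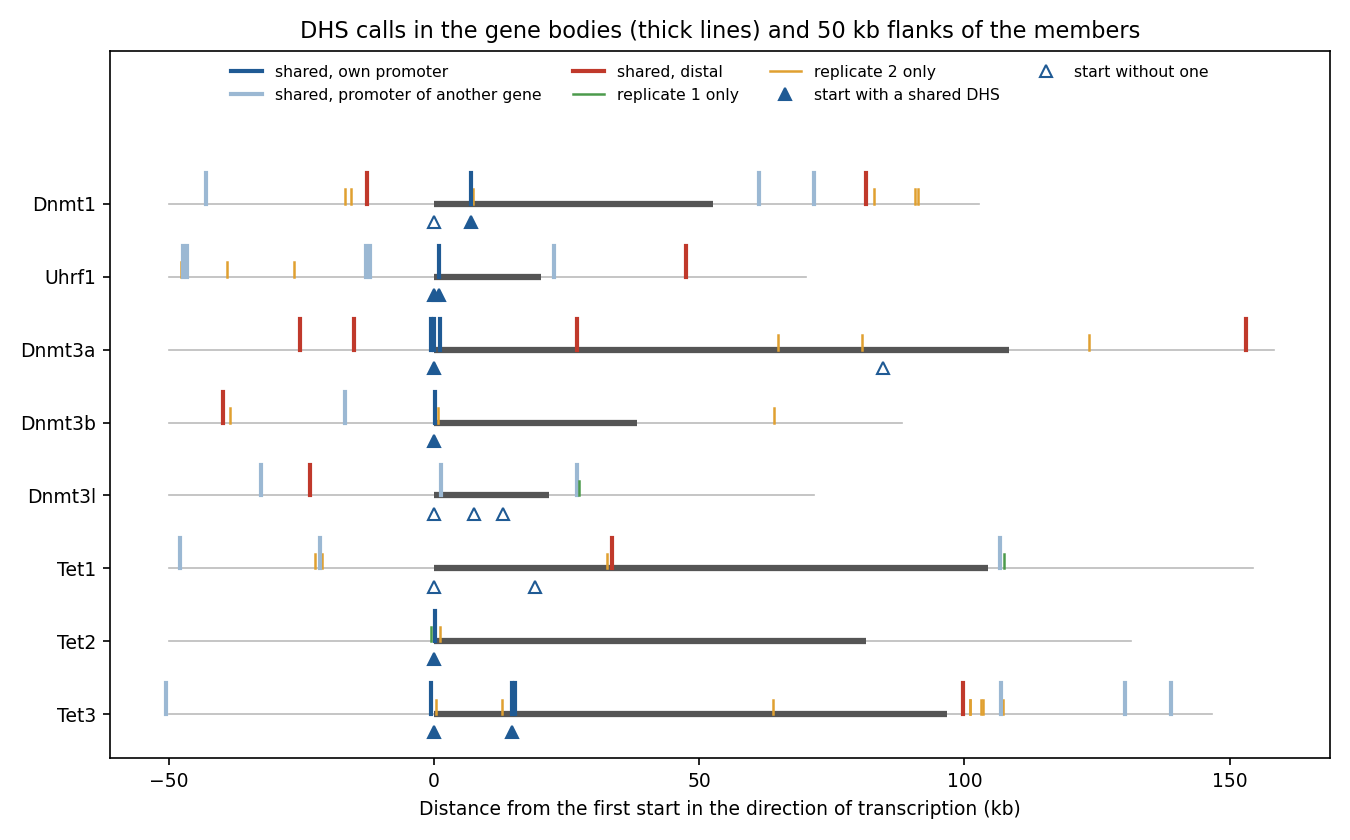
Stricter-list DHS calls in the gene body (thick line) and 50 kb flanks (thin line) of each member, by distance in kb from its first start in the direction of transcription. Tall ticks are shared DHSs at the own promoter, at the promoter of another gene or distal, short ticks are calls of 1 library, and triangles are starts with or without a shared DHS; Dnmt3a has 4 distal ticks and Tet2 has none.

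The strongest distal DHS of the Dnmt3a window was intergenic, with its middle 15030 bp upstream of the long-form start, at chr12:3791901-3792100. Its signals of 3.03 in replicate 1 and 8.80 in replicate 2 were higher than 98.8% of shared distal DHSs in each library. It was also the most footprinted of all member DHSs, with 36.5% of its bases inside footprints of both libraries, against a median of 11.4% over all shared distal DHSs. Its sequence is printed with those bases in capitals (chr12:3791901-3792080, plus strand).
Dnmt3a upstream DHS: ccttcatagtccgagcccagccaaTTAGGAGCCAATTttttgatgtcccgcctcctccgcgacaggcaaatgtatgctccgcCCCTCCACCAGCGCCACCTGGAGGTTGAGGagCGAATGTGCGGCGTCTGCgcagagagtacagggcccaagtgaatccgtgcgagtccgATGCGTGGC
The first capital run held a full NFY match, and the second, of 30 bases, held no full match to a searched consensus. Stretches that differ from a consensus by a base were not counted. The other distal DHSs of this window were an intronic one at chr12:3833881-3834180 (1.07 in replicate 1 and 2.68 in replicate 2), an exonic one of Dtnb at chr12:3781641-3781823 (1.54 and 3.27) and an exonic one of Pomc at chr12:3959861-3960300 (1.36 and 4.10).

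At Dnmt1 the strongest distal DHS lay in an exon of the neighbouring gene Angptl6, at chr9:20878141-20878580, with signals of 2.93 in replicate 1 and 14.2 in replicate 2, higher than 98.7% and 99.8% of shared distal DHSs. It lies 1147 bp from the Angptl6 start, just outside the promoter window. Like the Dnmt1 promoter it held a full NRF1 match inside footprints of both libraries, a match that 0.341% of all shared distal DHSs had in their central 300 bp (chr9:20878406-20878434, minus strand).
Angptl6 exon footprint with NRF1 consensus: tggccaCGCTGCGCATGCGCCTGggtcgc
The other Dnmt1 window DHS, in an intron of S1pr2 at chr9:20972221-20972860, had values of 0.757 and 1.49 and was the one member distal DHS without a base in footprints of both libraries.

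Matches to the CTCF consensus, the sequence bound by the insulator protein CTCF, were present in 2 of the 11 distal DHSs, against 18.8% of all shared distal DHSs. One lay between genes upstream of the first Dnmt3l start, with its middle 23326 bp away, at chr10:78018861-78019060, with signals of 0.827 in replicate 1 and 1.81 in replicate 2. The other lay in an intron of Bola3 beyond the end of Tet3, at chr6:83356601-83356820, with values of 1.81 and 2.59. Both matches lay wholly inside footprints of both libraries, in runs of 27 and 28 bases, the capitals below (chr10:78018895-78018923, plus strand, and chr6:83356704-83356733, minus strand).
Dnmt3l window footprint with CTCF consensus: gTCGCCACCAGGTGGCGCTGTGCCCTTAc
Tet3 window footprint with CTCF consensus: gCAGGCCCACGCTGCCCCCTAGTGGCTAGt
The remaining distal DHSs were an intergenic one near Dnmt3b at chr2:153609627-153609760 (0.948 in replicate 1 and 2.19 in replicate 2) and one in an intron of Kdm4b, downstream of Uhrf1, at chr17:56350798-56350980 (1.35 and 1.46). The Kdm4b DHS had a run of 31 bases inside footprints of both libraries, the longest of all member DHSs. Neither this run nor one of 29 bases in the Dtnb exon DHS held a full match to a searched consensus. Stretches that differ from the CTCF consensus by a base were not counted, so the 2 DHSs are those with a full match.

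Calls of a single library were mostly those of replicate 2. Of the 70 DHSs called in the 8 windows by either library, 40 were shared, 3 were called in replicate 1 only and 27 in replicate 2 only. Over the windows of all protein-coding genes, 38.6% of DHSs were shared, 37.6% were of replicate 1 only and 23.8% of replicate 2 only. Of the 27 calls of replicate 2 only, 13 had a call in the lenient list of replicate 1. The same share over the windows of all protein-coding genes was not computed. The Tet3 window had 8 of the 27, 5 in the neighbouring gene Bola3 at signal values of 0.299 to 0.851.

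Footprints were present in both libraries at every shared promoter DHS of the members. A base inside footprints of both libraries was found in 10 of 10, against 80.3% of all shared promoter DHSs, and in 10 of 11 distal DHSs, against 85.3%. The member promoter DHSs were wider, with a median of 460 bp against 400 bp over all. The pooled share of bases inside footprints of both libraries was 5.18% at the member promoter DHSs and 5.05% at all shared promoter DHSs. At the single DHSs it ran from 1.37% at the middle Dnmt3a DHS to 9.29% at the Tet3 long-form start.

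**Figure D4:**
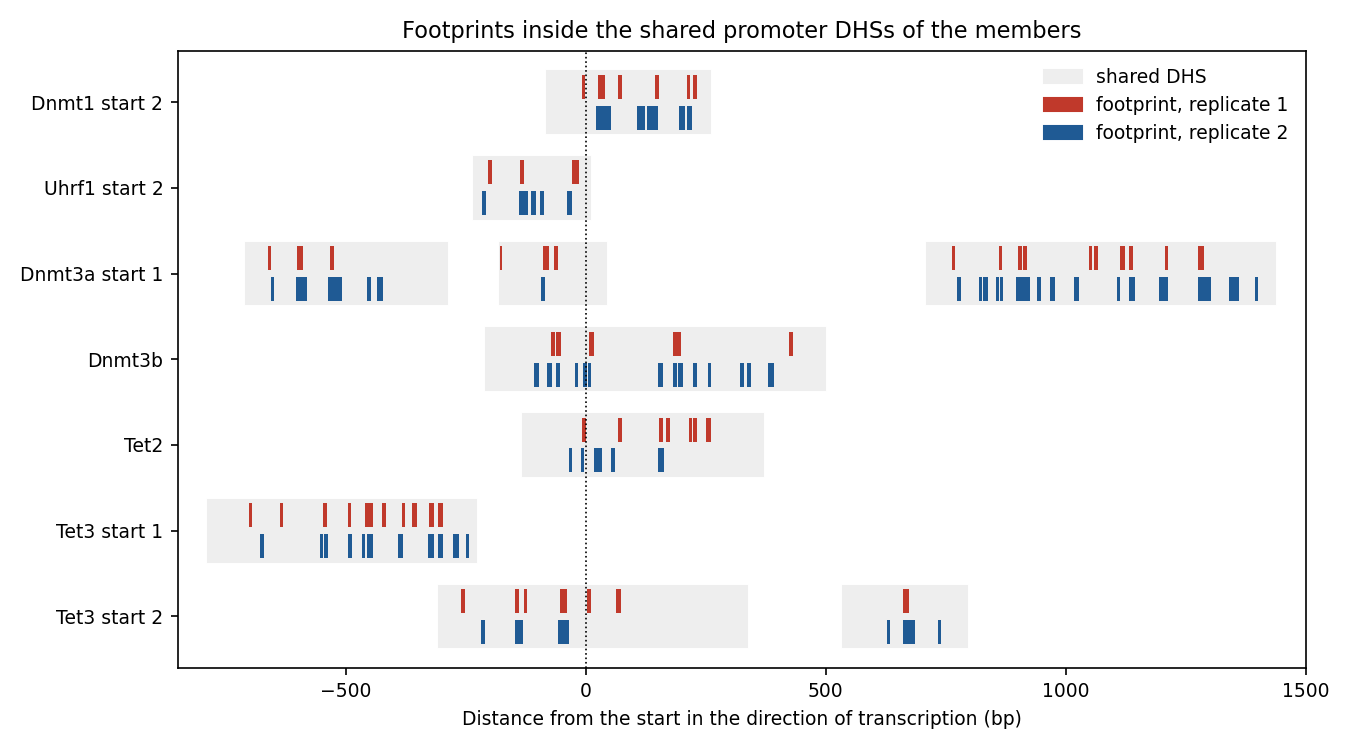
Footprints of replicate 1 (upper marks) and replicate 2 (lower marks) inside the shared promoter DHSs (grey boxes) of the members, by distance in bp from the nearest start in the direction of transcription (horizontal axis). Marks that stand above each other are protected in both libraries, as at 25 to 39 bp downstream of the Dnmt1 start.

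In the central 300 bp, SP/KLF matches were found in 10 of 10 member promoter DHSs, against 68.3% of all, and NFY matches in 4 of 10, against 31.1%. An E2F consensus (TTTGGCGC, TTTCCCGC or TTTCGCGC) was found in 2 of 10, against 3.62%, at Dnmt1 and Uhrf1. E-box matches (CATATG or CAGCTG) were found in 3 of 10, against 17.4%, and EGR in 1 of 10, against 6.29%. No member promoter DHS had a central match to CRE (TGACGTCA), ETS (CCGGAAGT), CHR (TTTGAA), YY1, AP-1 (TGANTCA), the TATA box (TATAAA) or CTCF, which were in 1.24% to 6.60% of all shared promoter DHSs. Both strands were searched, and several of these DHSs belong to the same gene. A match describes the letters and is no evidence of a bound factor.

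Of 48 genes that work with the writers and erasers, 43 had a shared promoter DHS, against 55.7% of all protein-coding genes. By role these were 8 of 8 maintenance partners, 8 of 8 genes of cofactor metabolism, 8 of 9 readers, 11 of 13 partners of TET and DNMT proteins, and 8 of 10 genes of excision and repair. All 38 with a CpG ratio of 0.6 or more at a start had one, against 90.5% of all such genes, and 5 of 10 without such a start had one, against 20.7%. The 6 called members fell inside the range of the 43 genes, with a median signal value of 1.44 for the members and 1.76 for the pathway in replicate 1, and of 3.88 and 4.51 in replicate 2.

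Among the readers, Mbd3 and Mbd1, which belong to the methyl-CpG-binding domain family, had the highest values, 3.04 in replicate 1 and 12.6 in replicate 2 for Mbd3 and 2.53 and 11.7 for Mbd1. Among the maintenance partners Pcna, the replication clamp, with 2.01 and 7.00, and the DNA ligase Lig1, with 2.24 and 5.65, ranked highest on average over the libraries, although in replicate 2 Ehmt1, a histone methyltransferase gene, lay above Lig1 with 6.06. Trim28, the corepressor of KRAB zinc finger proteins, had 2.84 and 8.59, and Cxxc1, which binds unmethylated CpGs, had 2.04 and 9.11. Gadd45b and Gadd45g, stress-inducible genes linked to demethylation, had 2.21 and 10.1, and 2.36 and 7.11. Of the cofactor genes, Mat2a, which makes S-adenosylmethionine, had 2.45 and 9.14.

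Without a stricter promoter call in either library were Smug1, a uracil DNA glycosylase, Apobec3, a cytidine deaminase, Dppa3, which protects methylation in the early embryo, and Dnmt3c, a rodent methyltransferase of the male germ line. Their highest CpG ratios were 0.281, 0.401, 0.443 and 0.0149. Zbtb38, a methyl-CpG-binding zinc finger gene, had a stricter call in replicate 2 only, with a signal value of 1.69, and a shared promoter DHS in the lenient list.

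**Figure D5:**
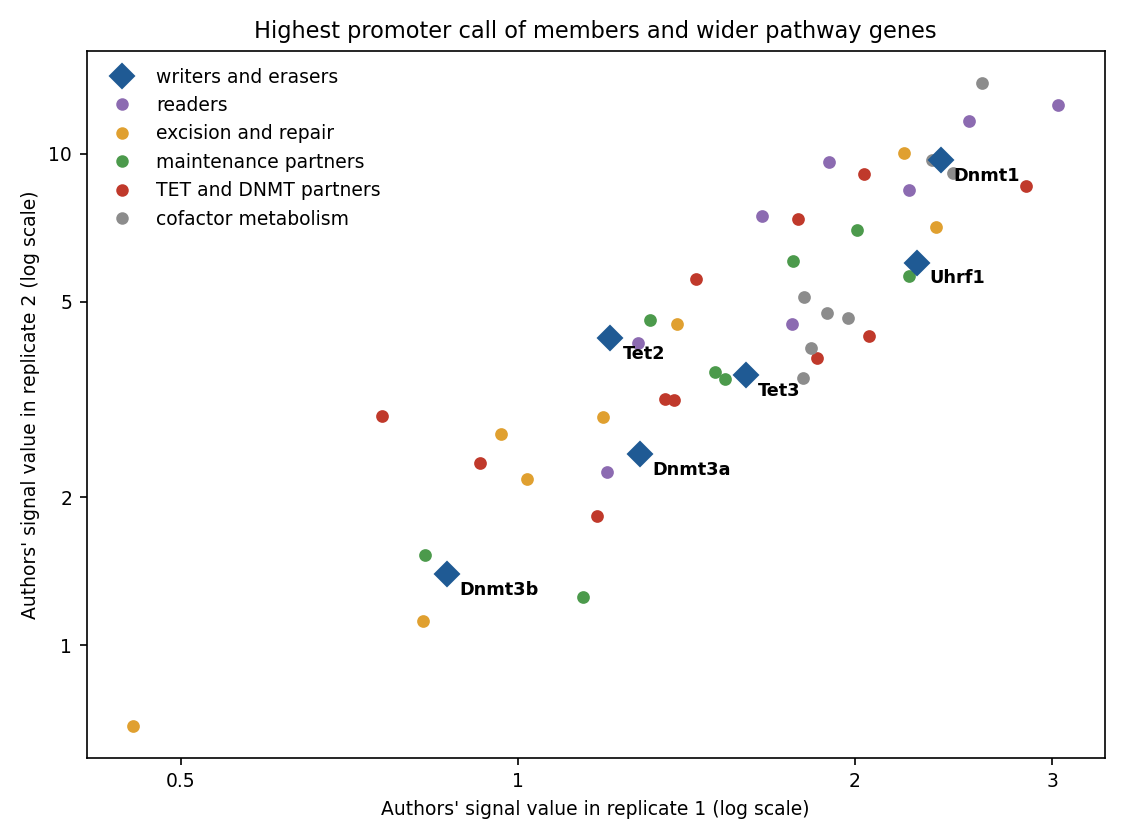
The authors' signal value of the highest promoter call in replicate 1 (horizontal axis, log scale) and replicate 2 (vertical axis, log scale) for the 6 called members (labelled diamonds) and the 43 called pathway genes (circles by role). Dnmt1 and Uhrf1 lie toward the upper right and Dnmt3b toward the lower left.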

How the data were processed

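Files of 2 DNase-seq libraries of left cortex were used as the authors deposited them, 1 set per library in mm10 coordinates, per the file headers. The labels give separate animal numbers but 1 shared donor entry. Neither the aligner nor the peak caller is named in the sources used here. The deposited signal values under 100 steps, those tested, are whole multiples (within 0.05) of 1 step in each library, 0.00467 in replicate 1 and 0.00788 in replicate 2. A density per 1000000 tags would have such steps at depths of 214 and 127 times that number, so depth is implied and not stated. The deposited q-values are listed per run of bases under 0.05. The footprint lists carry a constant 0.01, taken here as the authors' p-value threshold. Every stricter call held a base with q under 0.001.

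The reference was GRCm38 with GENCODE M21 basic transcripts. Calls were shared when they overlapped by 1 bp, promoters reached 1 kb from a start, and windows reached 50 kb from a gene. CpG ratios used 500 bp on either side. No test was run: counts stand beside the same counts over all protein-coding genes. The lists of partner genes, markers and consensus sequences, and the members, were chosen with earlier results of these data known. Named were all 8 members, the partner genes without a stricter promoter call in either library, in each role the 2 whose promoter signal ranked highest on average, and distal DHSs with the highest signal or a footprint in both libraries; Zbtb38 and Ehmt1 were named after their values were seen, and 1 gene that the rule names is not reported here. Alternatives changed the list, overlap, window, flank, annotation, joining of starts and library. Python 3.11.15 with NumPy 2.4.6 and pysam 0.24.0 was used, and the interval code was tested on simulated data. The sequences printed are from the GRCm38 genome. The number of mice limits the precision, and replicate spread cannot be estimated from 2 libraries on unlike scales.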

Additional observations from a re-analysis of the deposited data

How the results depend on the processing

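The count of members with a shared promoter DHS stayed between 5 and 7 of 8 under every alternative run, and that of starts between 7 and 11, of 14 to 43 starts. The share of all protein-coding genes moved with the same settings, from 45.1% with 50% reciprocal overlap to 61.5% in the lenient list. It was 50.6% where 5 members were counted, and 57.1% and 57.3% where 7 were. For starts and distal DHSs, the shares over all genes were not computed under the alternatives. The count of partner genes stayed between 40 and 44 of 48. Keeping the calls above the median signal of each list dropped Dnmt3b, a 2.5 kb window added Dnmt3l through the Aire promoter DHS, and all annotated transcripts added Tet1 through its internal start. The 11 shared distal DHSs became 27 in the lenient list, 7 with 50% reciprocal overlap, 5 with flanks of 20 kb and 22 with flanks of 100 kb, and 11 to 28 with either library alone. The 7 members with a distal DHS became 4 with 50% reciprocal overlap and 4 with flanks of 20 kb, and 7 to 8 with either library alone. The 5.18% of promoter DHS bases inside footprints of both libraries became 3.34% where footprints had to overlap by 50% of each width and 4.08% in the lenient list. Either library alone gave 11.8% to 17.7%, since 1 footprint list then suffices. The cause of the other differences was not tested, beyond the settings' own construction. No paired analysis was possible because there is 1 group. With 1 group of 2 libraries, whether a start without a call is closed in every cell or open in few cells is not detectable at this depth.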
